A study of Mus musculus with 6 samples.

Results

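The 10 contractile and mechanosensitive SRF and YAP target genes *Acta2*, *Tagln*, *Cnn1*, *Myl9*, *Tpm1*, *Tpm2*, *Ctgf*, *Cyr61*, *Ankrd1* and *Actb* were followed by RNA-seq in differentiating mouse brown and white fat cells. They were chosen by gene symbol, with earlier results of these data known. All 10 were found once among the 37841 entries of the expression table and passed the filter that left 14413 genes for testing. Preadipocytes came from the stromal vascular fraction of interscapular brown adipose tissue (BAT) and of inguinal white fat depots (WAT), dissected from 8 BL6 mice at 3 weeks of age. They were grown to confluence, differentiated with insulin, dexamethasone, 3-isobutyl-1-methylxanthine and Rosiglitazone, and then kept in maintenance medium. The groups were BAT and WAT cells at day 0 (before induction), day 4 and day 6, with 1 library for each cell type and day, hence 6 libraries in all. These were primary cultures that can hold several stromal cell types, and nothing in the labels ties the days or the cell types to separate cultures or animals. Levels are FPKM, fragments per kilobase of exon scaled to the number of mapped fragments in a library, a unit that accounts for transcript length and so allows levels of different genes to be compared.

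Actin filaments and myosin form the stress fibres with which spread, adherent stromal cells pull on their substrate. When actin is polymerised, the coactivators MRTF-A and MRTF-B (*Mkl1* and *Mkl2*) enter the nucleus and join serum response factor (SRF), which binds the CArG box in genes of the contractile apparatus, while tension also lets YAP and TAZ enter the nucleus and act through TEAD factors, which recognise CATTCC. Preadipocytes are stretched, fibroblast-like cells, and they round up and lose stress fibres as they become adipocytes.

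The sequences that carry matches to the binding motifs of these factors are shown first. Whether such matches go with the course of a gene was not tested. The RefSeq promoter table (GRCm38.p6, another build than the mm9 of the expression table) held 7 of the 10 genes. *Tagln*, *Ctgf* and *Actb* were not matched. The 250 bases before each start were searched on both strands for the CArG box, for the CArG box with 1 core base changed to G or C, and for CATTCC, and the matches are in capitals. The TEAD letters appear as GGAATG where they lie on the opposite strand. *Acta2* (chr19:34255374-34255623, minus strand) held 2 of the altered CArG boxes, which began 84 and 34 bases before the start, and GGAATG at 146 bases. *Myl9* (chr2:156775214-156775463, plus strand) held a CArG box at 161 bases and an altered one at 99. *Tpm1* (chr9:67049214-67049463, minus strand), *Cyr61*, which RefSeq lists as *Ccn1* (chr3:145649986-145650235, minus strand), and *Ankrd1* (chr19:36119845-36120094, minus strand) held the TEAD letters, at 56 bases, at 103 bases, and at 210 and 123 bases.
Acta2: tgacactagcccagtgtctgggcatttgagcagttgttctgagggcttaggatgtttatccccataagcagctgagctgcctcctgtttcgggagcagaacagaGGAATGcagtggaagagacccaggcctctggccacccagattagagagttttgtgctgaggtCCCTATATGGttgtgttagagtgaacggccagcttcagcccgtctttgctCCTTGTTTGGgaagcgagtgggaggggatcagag
Myl9: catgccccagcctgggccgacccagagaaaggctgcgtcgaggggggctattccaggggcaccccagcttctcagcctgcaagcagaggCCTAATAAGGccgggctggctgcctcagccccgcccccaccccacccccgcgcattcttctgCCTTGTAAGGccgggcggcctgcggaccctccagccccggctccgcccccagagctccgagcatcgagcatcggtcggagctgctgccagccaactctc
Tpm1: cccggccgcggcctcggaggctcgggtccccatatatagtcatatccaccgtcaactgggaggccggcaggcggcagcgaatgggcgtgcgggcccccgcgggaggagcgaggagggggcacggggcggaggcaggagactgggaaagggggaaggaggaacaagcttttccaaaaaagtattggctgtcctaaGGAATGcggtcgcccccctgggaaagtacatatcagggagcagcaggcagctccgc
Cyr61: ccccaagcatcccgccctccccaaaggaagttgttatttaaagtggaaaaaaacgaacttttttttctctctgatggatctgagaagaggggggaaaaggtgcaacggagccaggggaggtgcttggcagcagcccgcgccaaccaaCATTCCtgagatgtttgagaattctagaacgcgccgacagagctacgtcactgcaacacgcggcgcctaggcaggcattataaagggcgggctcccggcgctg
Ankrd1: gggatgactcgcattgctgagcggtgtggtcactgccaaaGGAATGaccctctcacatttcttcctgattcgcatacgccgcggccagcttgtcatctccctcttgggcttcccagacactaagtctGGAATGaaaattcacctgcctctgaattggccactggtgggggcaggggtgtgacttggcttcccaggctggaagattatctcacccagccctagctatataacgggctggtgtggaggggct

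None of these letters were found in the windows of *Cnn1* and *Tpm2*. The CArG box was in 1 of the 7 windows and in 1.47% of 32851 RefSeq promoters of the same length. The altered box was in 2 of 7 windows, against 7.24% of promoters, and either form was in 2 of 7, against 8.59%. The TEAD letters were in 4 of 7 windows, against 12.6% of promoters. No match overlapped another in the sequences shown. These are matches of letters and not measured binding sites.

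Before the results, the libraries themselves are described. Steps between low FPKM values gave estimated depths, in units of 1e+06 fragments, of 9.1 for WAT day 0 and 17.45 to 21.75 for the other 5 libraries. Transcripts of the mitochondrial genome made up 2.84, 5.54 and 15.3% of summed FPKM in BAT and 4.71, 11.1 and 14.1% in WAT at days 0, 4 and 6. Summed FPKM was 525714 in the BAT day 0 library and 740823 to 842757 in the others, so that BAT day 0 levels are higher relative to the rest when each library is rescaled to the same sum. All 8 adipocyte markers rose after induction, and their summed level was 437.4, 44220 and 29410 FPKM in BAT and 1257, 45610 and 24440 FPKM in WAT at days 0, 4 and 6. That sum was mostly *Fabp4*, at 41440 FPKM in BAT and 42700 FPKM in WAT at day 4 and at 26710 and 22120 FPKM at day 6. Other markers moved both ways from day 4 to day 6: in BAT *Adipoq* went from 822.7 to 1174 FPKM and *Cidec* from 563.2 to 245.1 FPKM. In these bulk cultures, fewer cells of a type and less RNA per cell cannot be told apart.

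The course of the contractile programme over the days of differentiation is described first. Because the genes were chosen with earlier results of these data known, the number that fell is a description and not an independent test. In the fit over both cell types 9 of the 10 genes fell on days 4 and 6 relative to day 0, with *Ctgf*, *Acta2*, *Myl9* and *Tagln* lowest relative to their start, and *Cyr61* was the gene that did not pass the test. The low point of the strongest genes was day 4, and on day 6 several stood well above that point in both BAT and WAT. The test was limma on log2(FPKM + 1) with terms for cell type and day, with Benjamini-Hochberg adjustment over all 14413 genes at 0.05, and it had 2 residual degrees of freedom. The 2 cell types stood in for replicates of each day, so its error also holds any response that differed between them. By this test 10.6% of all genes fell and 11.3% rose. The median difference was -2.62 over the 10 genes and -0.13 over all genes on the log2 scale. Both day 0 libraries lay above all 4 later libraries in 9 of the 10 genes, and in 24.4% of all genes.

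**Figure D1:**
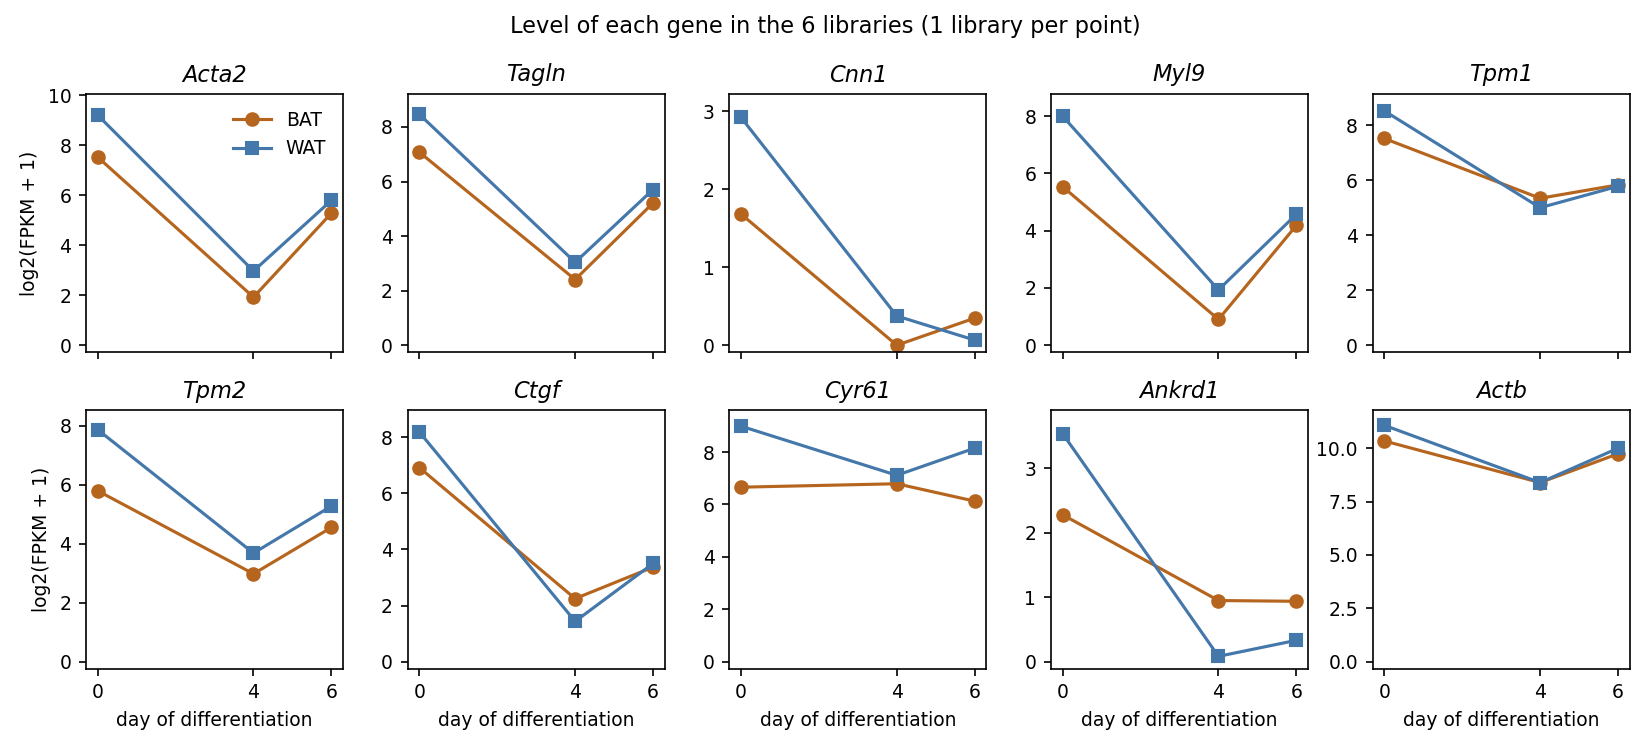
Level of each gene, as log2(FPKM + 1), against the day of differentiation (0, 4 and 6) in BAT (circles) and WAT (squares), with 1 library per point. *Acta2*, *Tagln* and *Myl9* form a deep V in both cell types, *Tpm1* and *Cyr61* are flatter, and *Cnn1* and *Ankrd1* end near 0.

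*Acta2* encodes smooth muscle alpha-actin, the actin isoform of contractile stress fibres (ENSMUSG00000035783, mm9 chr19:34315580-34329826, minus strand). Its level was 183.3, 2.79 and 37.9 FPKM in BAT and 589.1, 6.82 and 54.5 FPKM in WAT at days 0, 4 and 6. Day 0 was the highest and day 4 the lowest in both cell types, and the day 0 and later values did not overlap. It fell by 4.37 on the log2 scale (SE 0.31, limma adjusted p = 0.0011), and at day 4 it stood at 1.52% of its day 0 level in BAT and at 1.16% in WAT. The call held in each of the 6 fits that left out 1 library.

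*Tagln* encodes transgelin, an actin-binding protein of smooth muscle also known as SM22 alpha (ENSMUSG00000032085, chr9:45737711-45744141, minus strand). It was at 134, 4.30 and 36.1 FPKM in BAT and at 352.8, 7.22 and 51.3 FPKM in WAT at days 0, 4 and 6. The order of the days was that of *Acta2*, and again no later library reached a day 0 library. *Tagln* fell by 3.68 (SE 0.29, limma adjusted p = 0.0014). The gene overlaps *Pcsk7* on the opposite strand in the annotation, and whether strand was used in the authors' quantification is not stated.

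*Myl9* encodes a regulatory light chain of smooth muscle and non-muscle myosin, whose phosphorylation switches on contraction (ENSMUSG00000067818, chr2:156601156-156607394, plus strand). Its level was 45.5, 0.867 and 17.2 FPKM in BAT and 255.2, 2.82 and 22.8 FPKM in WAT at days 0, 4 and 6. At day 4 it was at 1.91% of day 0 in BAT and at 1.10% in WAT. It fell by 3.87 over the later days (SE 0.44, limma adjusted p = 0.0033). This is the gene whose promoter window above held the unaltered CArG box.

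The tropomyosins lie along actin filaments and govern the access of myosin. *Tpm1* (ENSMUSG00000032366, chr9:66870397-66897213, minus strand) was at 182.4, 39.6 and 56.0 FPKM in BAT and at 367.2, 31.0 and 53.9 FPKM in WAT at days 0, 4 and 6. *Tpm2* (ENSMUSG00000028464, chr4:43527583-43536637, minus strand) was at 54.6, 6.89 and 22.5 FPKM in BAT and at 233.2, 11.8 and 37.8 FPKM in WAT. Both were lowest at day 4, and *Tpm1* kept 21.7% of its day 0 level in BAT and 8.45% in WAT at that time, more than *Acta2*, *Tagln* or *Myl9*. *Tpm1* fell by 2.53 (SE 0.34, limma adjusted p = 0.0052). *Tpm2* fell by 2.71 (SE 0.36, limma adjusted p = 0.0049). Without the WAT day 4 library neither passed the test, with limma adjusted p = 0.059 for *Tpm1* and 0.053 for *Tpm2*.

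*Cnn1* encodes calponin 1, an actin-binding protein of differentiated smooth muscle (ENSMUSG00000001349, chr9:21903725-21914074, plus strand), and it was the least abundant of the 6 contractile genes. It was at 2.21 FPKM, listed at 0 and at 0.272 FPKM in BAT at days 0, 4 and 6, and at 6.58, 0.297 and 0.0465 FPKM in WAT. The later values rest on few fragments, an estimated 12.0 in BAT at day 6, 14.0 in WAT at day 4 and 2.0 in WAT at day 6, so the order of days 4 and 6 is not resolved. *Cnn1* fell by 2.11 (SE 0.41, limma adjusted p = 0.016), a value that depends on the pseudocount of 1. Leaving out the day 4 library of BAT or of WAT ended the call (limma adjusted p = 0.10 and 0.092). Summed over the 6 contractile genes, the level was 602, 54.4 and 170 FPKM in BAT and 1804, 60 and 220.3 FPKM in WAT.

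Among the YAP and TEAD targets, *Ctgf* and *Cyr61* encode secreted matricellular proteins of the same CCN family, yet their courses differed. *Ctgf* (ENSMUSG00000019997, chr10:24315248-24318489, plus strand) was at 120.2, 3.75 and 9.34 FPKM in BAT and at 291.6, 1.71 and 10.3 FPKM in WAT at days 0, 4 and 6. It was the gene with the largest fitted decrease of the 10, falling by 4.92 (SE 0.43, limma adjusted p = 0.0019), and at day 6 it was still at 7.78% of day 0 in BAT and at 3.54% in WAT. It overlaps *Gm15270* on the opposite strand.

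*Cyr61* (ENSMUSG00000028195, chr3:145309935-145312949, minus strand) was at 100.1, 109.7 and 68.9 FPKM in BAT and at 507.2, 137.5 and 283 FPKM in WAT at days 0, 4 and 6. The 2 cell types did not take the same course: day 4 was the highest of the 3 BAT values and the lowest of the 3 WAT values. Its fitted difference was -0.78 (SE 0.46, 95% interval -1.88 to 0.33, limma adjusted p = 0.27), and it ranged between -1.36 (without BAT day 0) and -0.20 (without WAT day 0) on leaving out 1 library. The BAT difference of day 4 from day 0 was 0.13 in log2(FPKM + 1), and -0.36 when every library was rescaled to the same sum. Whether the response of *Cyr61* differed between BAT and WAT was not tested, since 1 library per condition leaves no residual for that term.

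*Ankrd1* encodes a nuclear and sarcomeric ankyrin repeat protein induced by stretch (ENSMUSG00000024803, chr19:36186455-36194334, minus strand). Its level was 3.85, 0.928 and 0.912 FPKM in BAT and 10.6, 0.0587 and 0.258 FPKM in WAT at days 0, 4 and 6. The BAT values of days 4 and 6 were close to each other, and the WAT values at these days rest on an estimated 2.0 and 8.0 fragments. *Ankrd1* fell by 2.33 (SE 0.51, limma adjusted p = 0.023). The call was lost without BAT day 4 (adjusted p = 0.087), WAT day 4 (0.14) or WAT day 6 (0.053), and without a filter on low values (0.085), in the limma fit.

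*Actb*, cytoplasmic beta-actin, is an SRF target that is often used as a constant reference gene (ENSMUSG00000029580, chr5:143664794-143668433, minus strand). It was at 1293, 333.6 and 851.9 FPKM in BAT and at 2150, 333.8 and 1021 FPKM in WAT at days 0, 4 and 6, the highest level of the 10 genes in every library. At day 4 it was at 25.8% of day 0 in BAT and at 15.5% in WAT, and by day 6 at 65.9% and 47.5%. *Actb* fell by 1.58 (SE 0.40, limma adjusted p = 0.038). The call was lost without BAT day 4 (0.31), BAT day 6 (0.17), WAT day 4 (0.39) or WAT day 6 (0.18), under median-ratio scaling (0.10) and without a filter on low values (0.11), each value being a limma adjusted p. The ratio of *Actb* to *Acta2* was 7.05, 120 and 22.5 in BAT and 3.65, 48.9 and 18.7 in WAT, so the smooth muscle isoform changed more than the cytoplasmic one. In exact 100-base windows, 1.10% of the *Actb* transcript was shared with another protein-coding gene, *Lrrc58*, and none of the other 9 transcripts was. Pseudogenes and non-coding genes were not compared.

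**Figure D2:**
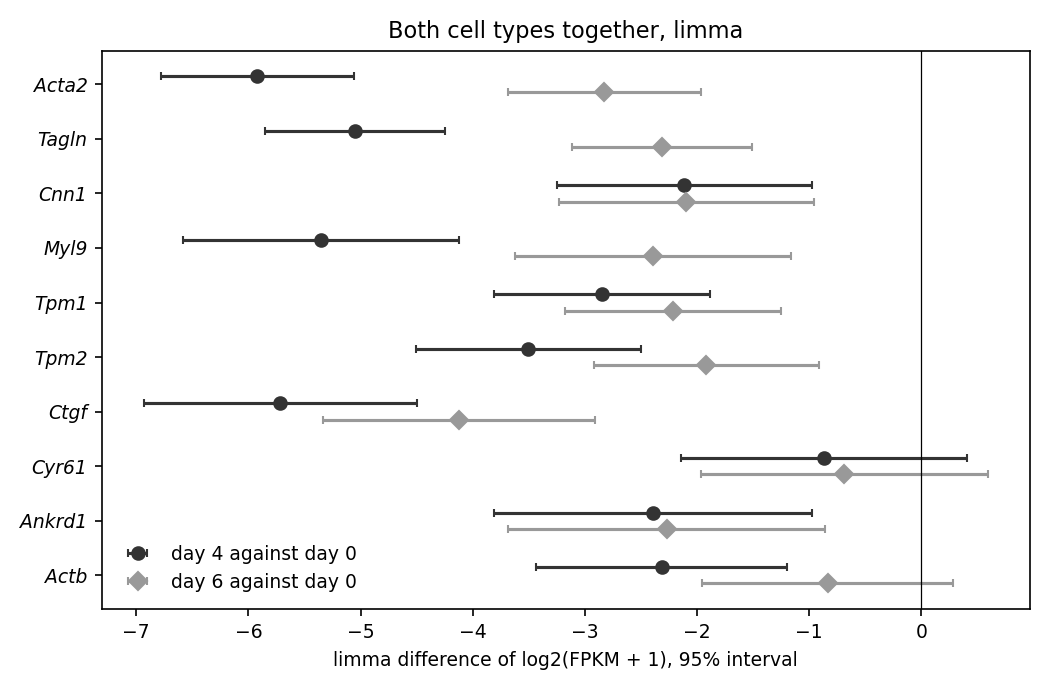
Fitted difference of each gene from day 0 at day 4 (circles) and day 6 (diamonds), in log2(FPKM + 1) with 95% intervals from limma over the 6 libraries. The day 4 interval lies below 0 for 9 genes and crosses it for *Cyr61*, and at day 6 the interval of *Actb* also crosses 0.

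Taken separately, day 4 and day 6 differed in how many genes passed. At day 4, 9 of the 10 genes fell relative to day 0, where 8.83% of all genes fell. At day 6, 7 of the 10 fell, where 5.74% of all genes did, and *Ankrd1* (limma adjusted p = 0.052), *Actb* (0.28) and *Cyr61* (0.43) did not pass. The difference for *Acta2* was -5.92 at day 4 and -2.83 at day 6. These counts rest on single libraries. Without WAT day 4 no gene of the 10 passed at day 4, and no gene in the table did. Without BAT day 4, 3 of the 10 passed at day 4, among 56 genes in the table. At day 6, 1 of the 10 passed without BAT day 4, BAT day 6, WAT day 4 or WAT day 6, where 112, 165, 155 and 335 genes in the table did. The fitted day 4 difference of *Acta2* stayed between -6.37 and -5.47 in the 6 fits that each left out 1 library.

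Within a cell type each day had 1 library, and differences were read against a 2-fold rule on log2(FPKM + 1) with no test. At day 4 relative to day 0, 9 genes were past it in BAT, all but *Cyr61*, and 10 in WAT, with backgrounds of 23.2% and 19% of all genes. At day 6, 8 were past it in BAT, where *Cyr61* and *Actb* were not, and 9 in WAT, where *Cyr61* was not, with backgrounds of 25.3% and 14%. The median difference over the genes was -2.50 in BAT and -3.86 in WAT at day 4, and -1.35 and -2.81 at day 6. The all-gene medians were -0.16 and -0.09 at day 4 and -0.21 and 0.10 at day 6. Rescaled to the same sum, the BAT medians of all genes moved to -0.60 at day 4 and -0.80 at day 6, and those of the 10 genes to -3.01 and -2.01.

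Whether the genes were still moving after day 4 was asked by setting day 6 against day 4. *Acta2* was 13.6-fold higher at day 6 than at day 4 in BAT and 7.99-fold in WAT. *Tagln* was 8.40-fold and 7.10-fold higher, and *Myl9* 19.8-fold and 8.11-fold. The *Myl9* fold in BAT starts from 0.867 FPKM at day 4, an estimated 15.9 fragments. In log2(FPKM + 1) the *Myl9* difference was 3.29 in BAT and 2.64 in WAT. By limma no gene of the 10, and no gene in the table, passed the adjusted threshold. The fitted difference of *Acta2* was 3.09 (SE 0.36, unadjusted p = 0.00010, adjusted p = 0.28). At an unadjusted p of 0.05, 6 of the 10 were higher, *Acta2*, *Tagln*, *Myl9*, *Tpm2*, *Ctgf* and *Actb*, where 2.52% of all genes were. By the 2-fold rule, 6 genes were higher at day 6 than at day 4 in BAT (background 3%) and 7 in WAT (4.42%), *Cyr61* being the additional one. The course of a level at least 2-fold lower at day 4 than at day 0 and at least 2-fold higher at day 6 than at day 4, yet under day 0, in both cell types was seen in 57 of 14413 genes (0.395%), and those same 6 were among them. Of the 1507 genes that were at least 2-fold lower at day 4 in both cell types (10.5% of all, and 9 of the 10), 3.78% took this course. The rule for it was written after its pattern had been seen.

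**Figure D3:**
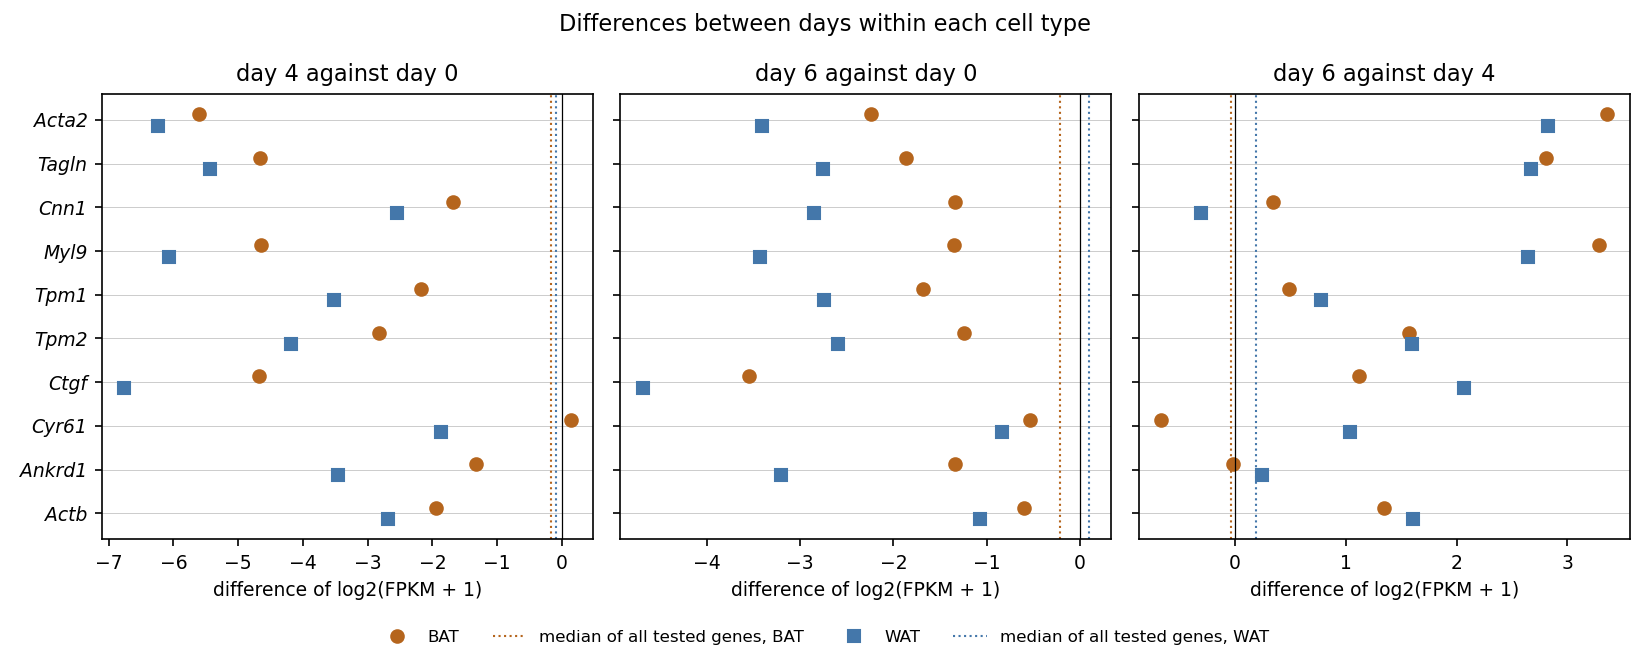
Differences of log2(FPKM + 1) between days for each gene in BAT (circles) and WAT (squares), each from 2 single libraries, with the median of all tested genes as dotted lines. In the 2 left panels nearly all points lie below 0, and in the right panel *Acta2*, *Tagln* and *Myl9* lie between 2.64 and 3.36.

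The depots were then set against each other. Before induction all 10 genes were lower in BAT than in WAT, and 9 were past the 2-fold rule, all but *Actb*, with a background of 13% of all genes lower by 2-fold and 40.4% lower by any amount. *Acta2* was at 183.3 FPKM in BAT and 589.1 FPKM in WAT at day 0. *Myl9* was at 45.5 FPKM in BAT and 255.2 FPKM in WAT, and its difference of -2.46 in log2(FPKM + 1) was the largest. The median difference was -1.33 over the 10 genes and 0.21 over all genes. This comparison depends on scaling: with equal sums the 10 genes stayed lower in BAT, but 4 were past 2-fold, the median was -0.74 and the all-gene median 0.80. With median-ratio scaling all 10 were past 2-fold, the median was -1.64 and the all-gene median 0. The day 0 comparison also rests on the shallowest library, WAT day 0, and on the BAT day 0 library with the low sum of FPKM.

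At day 4 the difference had narrowed. *Acta2* and *Myl9* were past the 2-fold rule, with 2.79 and 0.867 FPKM in BAT and 6.82 and 2.82 FPKM in WAT (background 3.08%), and 7 of the 10 were lower in BAT by any amount, where 36.3% of all genes were. *Actb* was at 333.6 FPKM in BAT and 333.8 FPKM in WAT. The order of day 0 was reversed for 3 genes. *Ctgf* was at 3.75 FPKM in BAT and 1.71 FPKM in WAT, *Ankrd1* at 0.928 FPKM in BAT and 0.0587 FPKM in WAT, and *Tpm1* at 39.6 FPKM in BAT and 31.0 FPKM in WAT. At day 6, *Cyr61* alone was past the rule, with 68.9 FPKM in BAT and 283 FPKM in WAT (background 4.09%), and 7 of the 10 were lower in BAT, where 60.6% of all genes were. On all 3 days 6 genes were lower in BAT, *Acta2*, *Tagln*, *Myl9*, *Tpm2*, *Cyr61* and *Actb*, against 14.4% of all genes. Some small differences turned with the scaling: with equal sums *Actb* at day 4 was 0.11 higher in BAT on the log2 scale and *Tpm1* at day 6 was marginally lower in BAT, and with median-ratio scaling *Ctgf* at day 6 was marginally higher in BAT.

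**Figure D4:**
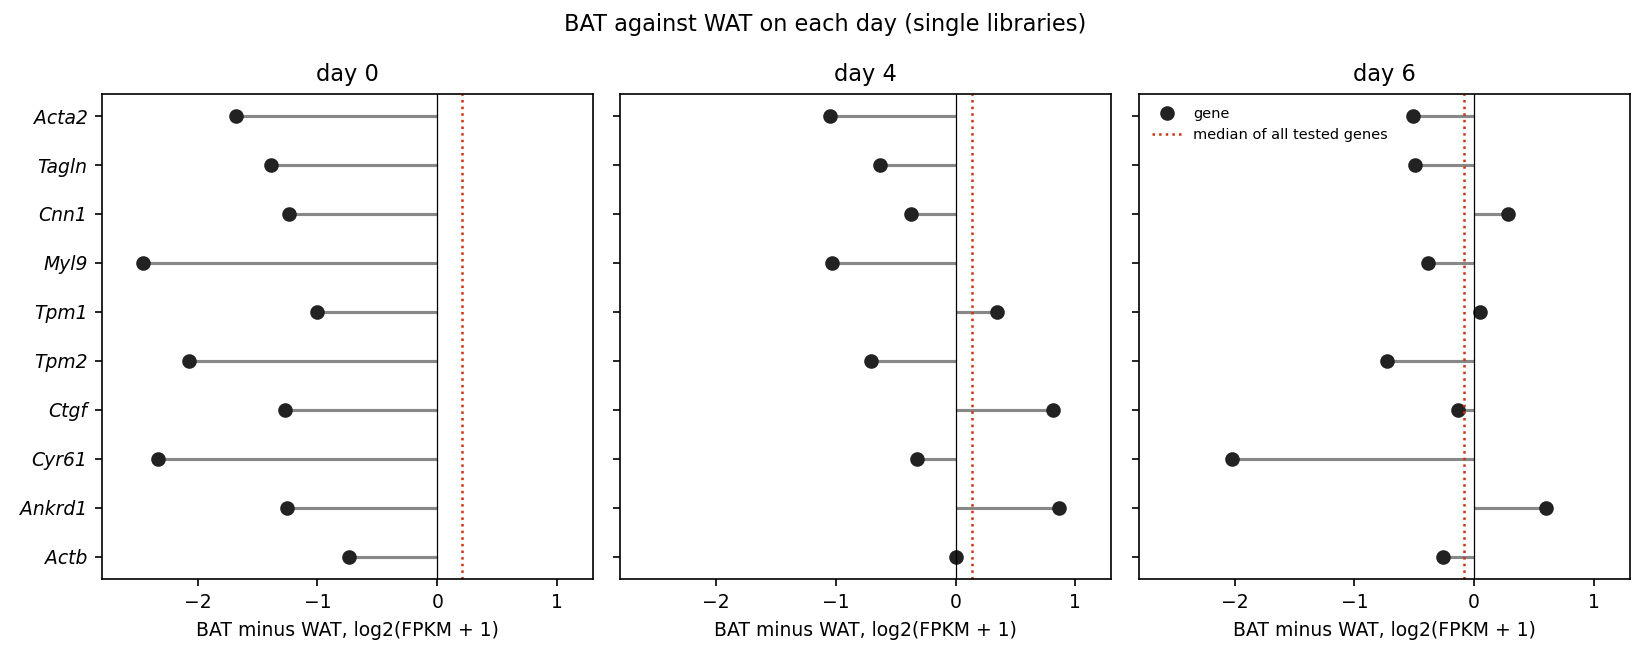
BAT minus WAT difference in log2(FPKM + 1) for each gene at days 0, 4 and 6, from single libraries, with the median of all tested genes dotted. All 10 points are left of 0 at day 0, and at day 6 *Cyr61* stands apart at -2.02.

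Across days, limma found no gene of the 10, and no gene in the table, that differed between BAT and WAT at an adjusted p of 0.05. At an unadjusted p of 0.05, 5 of the 10 were lower in BAT, where 3.58% of all genes were lower and 2.07% higher. *Acta2* differed by -1.08 (SE 0.29, unadjusted p = 0.0092) and *Cyr61* by -1.56 (SE 0.43, unadjusted p = 0.010), and the others were *Tpm2*, *Myl9* and *Tagln*. The limma adjusted p was 0.67 for all 5. The interval for *Tpm1* was -0.99 to 0.58, so a difference of up to that size could not be told from none.

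The genes were alike in profile to different degrees. As a description over the 6 libraries, which share day and depot, the correlation with *Acta2* in log2(FPKM + 1) was 0.999 for *Tagln*, 0.993 for *Myl9*, 0.984 for *Actb* and 0.975 for *Tpm2*, and it was lowest for *Cyr61* (0.535). Of 7807 other protein-coding genes with at least 10 FPKM in a library, the 5 most like the mean of the 10 standardised profiles were *Bin3*, *Tmem19*, *Cfl1*, *Myl12a* and *Synpo*, with correlations between 0.993 and 0.998. *Cfl1*, which encodes the actin-severing protein cofilin, was at 422.8, 172.9 and 285.4 FPKM in BAT and at 799.7, 204.6 and 317.1 FPKM in WAT at days 0, 4 and 6. *Myl12a* encodes another myosin regulatory light chain and *Synpo* the actin-associated synaptopodin. Since these genes were picked for a profile that is lower after day 0, their differences from day 0 are a description with no test: -0.79 for *Bin3*, -0.37 for *Tmem19*, -1.29 for *Cfl1*, -1.13 for *Myl12a* and -1.75 for *Synpo* on the log2 scale.

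Other genes of the same pathways were taken from lists of genes by role, and their counts stand against 10.6% of all genes that fell and 11.3% that rose. Of 31 tested SRF and actin cytoskeleton genes, 20 fell, 1 rose and 10 did not pass on days 4 and 6, with a median of -1.71. The largest changes were in *Actn1*, an actin crosslinker (-3.53), the calponins *Cnn3* (-3.14 as fitted) and *Cnn2* (-3.11), and caldesmon, *Cald1* (-3.05), and the gene that rose was *Fhl1* (1.49), which encodes a LIM domain protein of muscle. Of 25 YAP and TAZ target genes, 15 fell, 1 rose and 9 did not pass, with a median of -1.59. *Thbs1* (thrombospondin 1, -3.53), *Myof* (myoferlin, -3.41) and *F3* (tissue factor, -3.28) fell, while *Nt5e*, the ectonucleotidase CD73, rose by 3.53. Of 19 focal adhesion genes, 12 fell and 7 did not pass, with a median of -1.53, led by *Itga11* (-3.32), *Tgfb1i1* (-3.29), *Itgav* (-2.62) and *Tns3* (-2.54). The counts that fell dropped to 9 SRF and actin genes, 3 YAP and TAZ targets and 1 focal adhesion gene without BAT day 4, and to 8, 6 and 2 without WAT day 4. The calls of *Actn1*, *Cnn3*, *Cnn2*, *Cald1*, *Thbs1*, *F3*, *Nt5e* and *Tgfb1i1* held in all 17 alternatives, and that of *Itgav* was lost in 5.

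The Hippo pathway list and the SRF regulator list had medians nearer to 0, where 10.6% of all genes fell and 11.3% rose. The second list mixes regulators with the immediate early genes *Egr1* (1.02), *Fos* (3.45) and *Junb* (0.60). These lie above its median, which is thus not that of the regulators alone. *Yap1* was at 34.2, 26.8 and 23.2 FPKM in BAT and at 27.8, 24.6 and 23.5 FPKM in WAT at days 0, 4 and 6, a fitted difference of -0.32 (limma adjusted p = 0.38), and *Wwtr1*, which encodes TAZ, differed by -0.21 (0.63). Among 20 Hippo pathway genes 5 fell, the TEAD factors *Tead2* (-2.68) and *Tead3* (-1.30), the TEAD cofactor *Vgll3* (-2.70), the YAP-binding *Amot* (-2.46) and *Frmd6* (-1.59), none rose, and the median was -0.29. No Hippo pathway gene passed without BAT day 4, 1 passed without WAT day 4 and 3 without a filter on low values. The call of *Tead3* was lost in 7 of 17 alternatives (highest limma adjusted p = 0.24) and that of *Frmd6* in 6 (0.20). Of 9 tested genes on the SRF regulator list, *Mkl1* (-1.25, limma adjusted p = 0.045) and *Elk3*, a ternary complex factor (-2.49), fell. *Fos*, an SRF target and not a regulator of SRF (3.45), rose, and the median of the list was -0.80. The call of *Mkl1* was lost in 8 of 16 alternatives (highest limma adjusted p = 0.33), and without BAT day 4 or WAT day 4 no SRF regulator fell. *Srf* itself was at 7.75, 5.15 and 7.32 FPKM in BAT and at 18, 5.07 and 8.60 FPKM in WAT (-0.80, limma adjusted p = 0.15), *Mkl2* differed by -1.53 (0.062), and *Myocd* was under 1 FPKM in all libraries.

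**Figure D5:**
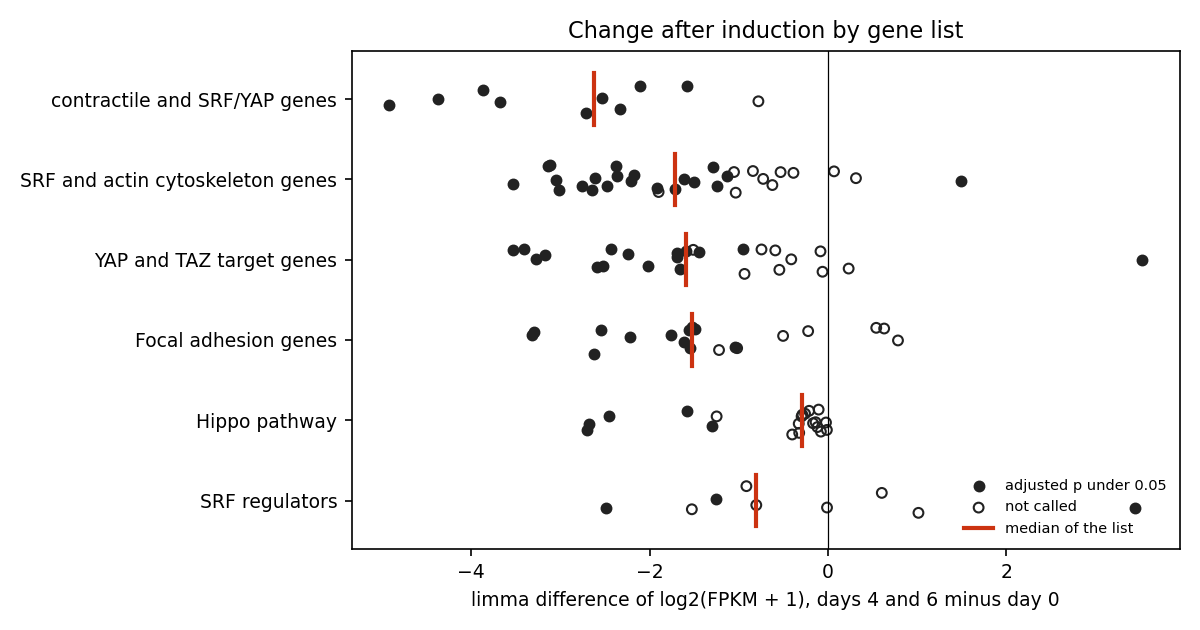
Fitted difference of days 4 and 6 from day 0 (limma, log2(FPKM + 1)) for each tested gene of 6 lists, filled where the adjusted p was under 0.05, with the median of each list as a bar. The median runs between -2.62 for the 10 genes and -0.29 for the Hippo pathway, against -0.13 for all genes.

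Markers of other cell types that could be present in the cultures were measured beside these results, and their part in them was not tested. Sums are over all listed markers of a type, tested or not. Over all genes 10.6% fell and 11.3% rose, so 1 call in a list of 5 to 7 markers says little about its cell type. Of 5 tested smooth muscle markers 3 fell, *Smtn* (-2.01), *Lmod1* (-1.42) and *Mustn1* (-1.41), and 1 rose, *Des* (1.65). The sum over the 7 listed was 25.3, 11 and 13 FPKM in BAT and 42.9, 8.82 and 18.4 FPKM in WAT at days 0, 4 and 6. *Myh11*, the smooth muscle myosin heavy chain, did not exceed 1.24 FPKM. The summed pericyte markers were at 238.8, 27.6 and 32.3 FPKM in BAT and at 138.5, 24.4 and 33.6 FPKM in WAT, with *Rgs5* and *Kcnj8* under 1 FPKM in every library and 1 of 5 tested markers falling. That sum was mostly *Pdgfrb*, a growth factor receptor of many stromal cells (224.9 of 238.8 FPKM in BAT at day 0), and the median difference of the 5 was -0.09. After day 0 *Mcam* (0.93) and *Cspg4* (0.61) were higher and *Abcc9* (-1.58) and *Notch3* (-0.09) lower, none of which passed. The skeletal muscle markers *Myod1*, *Myog*, *Ckm*, *Myh3*, *Ttn* and *Actn2* were under 1 FPKM throughout. Preadipocyte and stromal markers, of which 5 of 11 fell, summed to 9452, 1175 and 1742 FPKM in BAT and to 5163, 2114 and 2833 FPKM in WAT. In BAT at day 0 that sum was mostly *Col1a1* (4004 FPKM) and *Col3a1* (3376 FPKM), of which *Col3a1* did not pass. *Vim*, also uncalled, was at 720.6, 409.5 and 722.5 FPKM in BAT and at 1059, 631.5 and 766 FPKM in WAT. The median difference of the 11 markers was -1.86. Proliferation markers, of which 6 of 7 fell, summed to 124, 52.2 and 56.2 FPKM in BAT and to 185.4, 50.8 and 64.4 FPKM in WAT. Most of each sum after day 0 was *Pcna*, the marker that did not pass. *Pcna* was at 53.8, 33.4 and 47.0 FPKM in BAT and at 74.4, 27.3 and 49.6 FPKM in WAT. The median difference of day 6 from day 4 over the 7 markers was -0.26 on the log2 scale. Macrophage markers, of which 5 of 8 rose, summed to 25.9, 57.4 and 80.3 FPKM in BAT and to 97.8, 150.7 and 301.4 FPKM in WAT. Endothelial markers, of which 1 of 6 fell, summed to 14.6, 3.33 and 5.16 FPKM in BAT and to 19.8, 3.25 and 7.40 FPKM in WAT, and 5 of 6 mesothelial markers were under 1 FPKM throughout. Of 7 brown fat markers 1 rose and none fell. On leaving out 1 library the counts that fell were 0 to 2 of the smooth muscle, 2 to 9 of the stromal and 0 to 7 of the proliferation markers, and 0 to 3 macrophage markers rose.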

How the data were processed

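RNA-seq libraries were made by the authors with a directional kit and sequenced as paired ends. Per the labels and the study's methods, reads were aligned to mm9 with TopHat2 2.0.11 and quantified with Cufflinks 2.1.1, and FPKM per gene was deposited. No read counts were used, and depth was estimated from steps between low FPKM values (77.3 to 87.1% of those came out whole to a tolerance of 0.1 fragments). Of 37841 entries, 3376 repeated a symbol and the entry with the highest mean was kept. The white cell columns, headed SUB, were taken as WAT because BAT was the other heading. The test took the 14413 genes that reached 1 FPKM in any library, 1183 of them with a listed 0, and used log2(FPKM + 1) in limma 3.58.1 (R 4.3.3), fitted with a variance trend, and 2-fold rules were applied between single libraries. Quoted folds and percentages of day 0 are plain ratios of FPKM. Differences and fold rules on log2(FPKM + 1) understate changes of low genes. With 1 library per condition and a cell type term, the residual holds noise and any difference between the 2 cell types in their course over days. The p-values measure that spread, moderated over all genes (2 residual and 4.26 prior degrees of freedom), not the spread between replicate cultures. The members and gene lists, some from an earlier analysis, were chosen with earlier results of these data known. Named were the 10 genes, called SRF regulators and Hippo genes, the 4 largest changes in each pathway list and the 5 most similar genes, and *Yap1*, *Wwtr1*, *Srf*, *Myocd*, *Fhl1* and *Nt5e* also for context. One pathway list is not reported here. Marker lists are given as sums and counts with some markers named, a departure from that rule. The alternatives were other pseudocounts (0.1 and 5), filters, scalings (TPM, median-ratio), fits without a variance trend or a cell type or day term, summed entries, fold rules of 1.5 and 4, and leaving out each library. The fit was also run on simulated data with independent noise in each library and the same change in both cell types. That run cannot show how well the 2 cell types stand in for replicates. Gene positions are those of mm9 in the table, 1-based. Norepinephrine-treated cells and methylation data were not analysed here.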

Additional observations from a re-analysis of the deposited data

How the results depend on the processing

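Counts of the 10 genes changed under some settings, in which the cause was not tested beyond the smaller number of libraries or genes. Leaving out each library in turn gave 4 to 9 genes lower on days 4 and 6 than on day 0 (9 with all libraries), 0 to 9 at day 4 (9) and 1 to 8 at day 6 (7). Without a filter on low values 3 passed at day 6. Over all genes limma called 3153 in either direction for days 4 and 6 (1834 without a filter, 439 to 4738 on leaving out a library), 2591 for day 4 (1259 without a filter, 0 to 4471) and 1970 for day 6 (626 without a filter, 1281 with TPM, 112 to 3907). The lowest counts came without a day 4 library of BAT or WAT and the highest without WAT day 0. For day 6 against day 4, where the count was 0, it reached at most 8 (without BAT day 6), and for BAT against WAT across days, also 0, at most 3 (without either day 0 library), with none of the 10 genes among them. Between single libraries, the rule of 4-fold left 2 genes lower in BAT at day 6 (8 by 2-fold), 3 lower in BAT than in WAT at day 0 (9), 0 at day 4 (2), and 3 and 4 higher at day 6 than at day 4 in BAT and WAT (6 and 7). The share of all genes past 4-fold in these comparisons was 7.38, 2.19, 0.735, 0.395 and 0.472%. Scaling to equal sums (TPM) gave 4 lower in BAT than in WAT at day 0 and 1 at day 4. At day 4 a pseudocount of 5 and removal of the trend with transcript length each gave 0, and the rule of 1.5-fold gave 4 at day 4 and 2 at day 6, where 8.07 and 11.4% of all genes were past it. Signs turned in uncalled values only. Leaving out libraries moved *Cyr61* at day 4 against day 0 between -1.80 and 0.054, and at day 6 against day 4 *Cnn1* between -0.53 and 0.56, *Ankrd1* between -0.48 and 0.71 and *Cyr61* between -0.74 and 1.11. For BAT against WAT across days it moved *Tpm1* between -0.48 and 0.20, *Ctgf* between -0.70 and 0.34 and *Ankrd1* between -0.33 and 0.73. With TPM *Tpm1* was at 0.041 and *Ctgf* at 0.056, and *Ankrd1* was at -0.14 with a pseudocount of 5 and at -0.00576 with median-ratio scaling. *Acta2*, *Tagln*, *Myl9* and *Ctgf* kept their call for days 4 and 6 under every setting run. The removal of the length trend, the fits to protein-coding genes alone and the comparisons of day 6 with day 4 in each cell type were chosen after seeing the data. No paired analysis was possible because the labels give no replicate numbers, but the cell type term already compared days within each cell type, and without it 9 of the 10 genes passed for days 4 and 6, 9 for day 4 and 6 for day 6.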

Other observations

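The 57 genes that were at least 2-fold lower at day 4 and at least 2-fold higher at day 6 than at day 4, in both cell types, included genes outside the contractile set, named here after their values were seen. *Fn1*, fibronectin, was at 1407, 66.9 and 137 FPKM in BAT and at 357, 120 and 242 FPKM in WAT at days 0, 4 and 6. The chemokine gene *Ccl2* was at 117, 3.38 and 18.6 FPKM in BAT and at 230.4, 4.41 and 45.3 FPKM in WAT. *Cxcl12*, another chemokine gene, was at 1055, 29.5 and 82.0 FPKM in BAT and at 485, 43.5 and 199 FPKM in WAT. The filamin gene *Flna* was at 222, 29.3 and 63.8 FPKM in BAT and at 303, 33.4 and 70.1 FPKM in WAT. *Tuba1a*, an alpha-tubulin gene, was at 341, 32.3 and 112 FPKM in BAT and at 543, 45.3 and 107 FPKM in WAT. That day 0 was the highest and day 4 the lowest value follows from how these genes were chosen.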
